A study of Homo sapiens with 22 samples.

Results

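The regions described here are those H3R2me2a regions of a human pluripotent cell line whose nearest annotated transcript belonged to a microRNA gene. They were taken from the authors' lists of promoter and enhancer regions by the name of the nearest transcript, which had to begin with MIR and a digit or with MIRLET and not to end in HG, the ending of host gene names. The rule found 103 of 8819 regions, and these named 77 microRNA genes among 6697 gene names in all. All 77 names are microRNA genes in GENCODE 44 and in RefSeq, so the label holds by name. By the transcript identifier in the files, GENCODE 44 types 73 as microRNA. Those of MIR1302-10 and MIR4454 are typed long non-coding RNA, and those of MIR1302-1 and MIR1324 were not found. At the regions of these genes the named start may not be that of the hairpin. The rule used no tag count or cluster. It did rest on nearness, since a region at the start of another gene takes that gene's name. Contrasts with all regions in list, position class and distance are therefore not independent of the rule.

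MicroRNAs are short RNAs cut from a hairpin, which itself is cut from a longer primary transcript. The mature strand is loaded into an Argonaute protein and pairs through its seed, near its 5′ end, with messenger RNAs, whose translation and stability it lowers. Many microRNA hairpins lie in introns of protein-coding genes and are made from the transcript of that host, so the start of a hairpin is often far from the promoter that drives it. H3R2me2a is asymmetric dimethylation of arginine 2 of histone H3, which is placed by PRMT6 and is known to counteract methylation of the neighbouring lysine 4 at promoters.

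The study measured H3R2me2a by chromatin immunoprecipitation and sequencing (ChIP-seq) in NT2/D1, an established human embryonal carcinoma line that is pluripotent and differentiates towards neural cells in retinoic acid. Its aim, by the series' title and design, was to find where in the genome H3R2me2a depends on PRMT6. The regions came from 2 of the 22 samples, both from CRISPR/Cas9 control cells, grown either without all-trans retinoic acid (ATRA) or with 1 µM ATRA for 3 days. Precipitation in both used a rat monoclonal antibody made in the laboratory. The other 20 were not analysed here. The labels do not say whether the control cells were a clone or a pool. Both groups shared the CRISPR/Cas9 control state, and each had 1 library, so no difference below has a replicate check and no p-value was computed. The number of reads per library is unknown. Of 7 pluripotency marker genes, 4 were named at a region: POU5F1 at 1, SOX2 at 1, LIN28A at 6 and SALL4 at 3. NANOG, DPPA4 and TDGF1 were named at none, and RNA was not measured, so these counts do not show expression.

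The first set of sequences gives mature microRNAs of genes in the functional lists used further on, or with a seed of other human microRNAs. They show the seeds of microRNAs named at a region, not that the mark acts on them. For MIR7-2 only the 3p strand had a sequence, so the seed shown is not that of a 5p strand. Sequences are from RefSeq (GRCh38.p14), written 5′ to 3′, with the seed, bases 2 to 8, in capitals.
hsa-miR-135b-5p: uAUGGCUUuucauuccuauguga
hsa-miR-326: cCUCUGGGcccuuccuccag
hsa-miR-7-2-3p: cAACAAAUcccagucuaccuaa
hsa-miR-99b-5p: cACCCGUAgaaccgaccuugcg
hsa-miR-143-3p: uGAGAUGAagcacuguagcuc
hsa-miR-92b-3p: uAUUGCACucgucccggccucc
hsa-miR-148a-3p: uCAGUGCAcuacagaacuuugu
hsa-miR-23a-3p: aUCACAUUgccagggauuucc
hsa-miR-4262: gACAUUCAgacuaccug
hsa-miR-3666: cAGUGCAAguguagaugccga
The seed of miR-92b-3p is also that of miR-25-3p, miR-32-5p, miR-92a-3p, miR-363-3p and miR-367-3p. miR-4262 has the seed of the miR-181 family, and miR-3666 has that of miR-130b-3p, miR-301a-3p and miR-454-3p. miR-99b-5p shares its seed with miR-99a-5p and miR-100-5p, miR-148a-3p with miR-148b-3p and miR-152-3p, and miR-135b-5p with miR-135a-5p.

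The second set belongs to the genes at the regions with the most tags or the widest gap between tag counts, and was chosen after those values were seen.
hsa-miR-4738-5p: aCCAGCGCguuuucaguuucau
hsa-miR-4738-3p: uGAAACUGgagcgccuggagga
hsa-miR-4291: uUCAGCAGgaacagcu
hsa-miR-3182: gCUUCUGUaguguaguc
hsa-miR-3193: uCCUGCGUaggaucugaggagu
None of these 5 seeds occurs in another miRNA of the table. Of the 77 genes, 70 had an entry there, and 69 of them had a mature sequence, 92 sequences in all. Among these 69 genes no pair shared a seed, while 34 of the 92 mature sequences, from 30 genes, had a seed that another microRNA also has. MIR1302-1 and MIR1302-10, which belong to one family by name, are not among the 69, so their seeds were not compared. Nor is MIR548AO, of the same family by name as MIR548AS and MIR548F2, so its seed was not compared with theirs.

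Regions nearest to microRNA genes lay mostly in the enhancer list and far from the named start. Of the 103, 17 were in the promoter list (16.5%, exact 95% interval 9.92 to 25.1%) and 86 in the enhancer list, whereas 48.0% of all 8819 regions were in the promoter list. All intervals here cover counting error only, and neighbouring regions are not independent. The authors' position class was intron for 48 regions (46.6%, against 23.0% of all), intergenic for 27 (26.2%, against 17.5%) and start window for 21 (20.4%, against 53.3%). A further 6 were classed upstream and 1 exonic. Within the enhancer list alone the intron class still held 53.5% of microRNA regions against 42.6% of all, and the intergenic class 30.2% against 31.6%. The start-window class held 9.30% there, against 15.6% of all. Inside that list the 2 sets thus differed less than they did over both lists together. How far naming by the nearest transcript accounts for these contrasts was not tested.

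**Figure D1:**
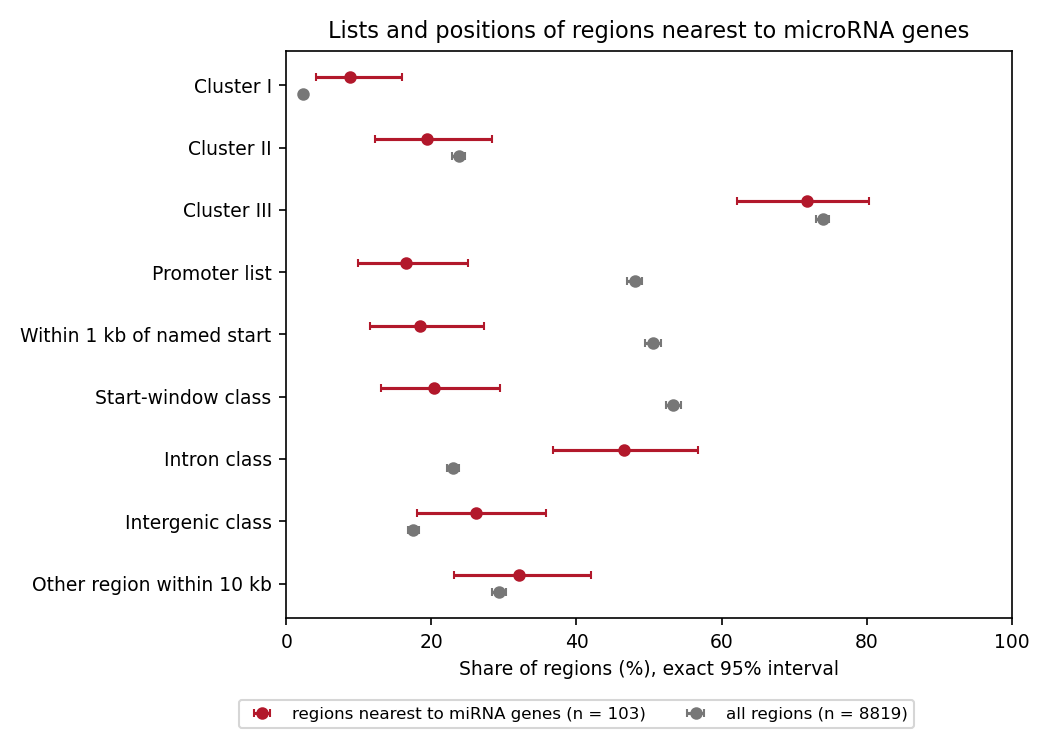
Share of regions (%) in each deposited list or position class, for the 103 regions nearest to microRNA genes and for all 8819 regions, with exact 95% intervals as bars. The microRNA regions are lower for the promoter list (16.5 against 48.0%) and higher for the intron class (46.6 against 23.0%).

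The authors sorted the regions into 3 clusters, by criteria that no label or header states. The lists of clusters I and II were deposited under the library without ATRA, and that of cluster III under the library with ATRA. MicroRNA regions fell 9 to cluster I, 20 to cluster II and 74 to cluster III. For cluster I that is 8.74% (4.07 to 15.9%) against 2.29% of all regions, 202 of 8819. The shares for cluster II (19.4%, 12.3 to 28.4%) and cluster III (71.8%, 62.1 to 80.3%) had intervals that held those of all regions, 23.8% and 73.9%. Cluster I regions were rarer in the promoter list in general, and within the enhancer list the cluster I share was 8.14% (3.34 to 16.1%) against 3.86%, a value inside the interval. In the promoter list it was 2 of 17 (11.8%, 1.46 to 36.4%) against 0.590%, and both regions are those of MIR3193. The 9 regions belong to 8 genes, since the pair at MIR3193 lies side by side.

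MicroRNA regions lay farther from the named start than all regions, in both lists. The median distance to the named start was 9302 bp, against 933 bp for all regions. In the promoter list it was 325 bp against 72 bp, and in the enhancer list 12460 bp against 9824 bp. Of the 103 regions, 19 (18.4%, 11.5 to 27.3%) lay within 1 kb, against 50.6% of all, and 53 within 10 kb. Those 19 regions named 17 genes. The farthest was a region 215051 bp downstream of MIR595, and the nearest lay 17 bp upstream of MIR1302-10, a member of a family with many near-identical copies. The transcript given for that gene is typed as a long non-coding RNA in GENCODE 44. Which point of a region the distance starts from is not stated, but the sign is positive downstream on the gene's strand: it rose in the direction of transcription in all 817 pairs of neighbouring regions of one transcript that were over 2 kb apart.

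**Figure D2:**
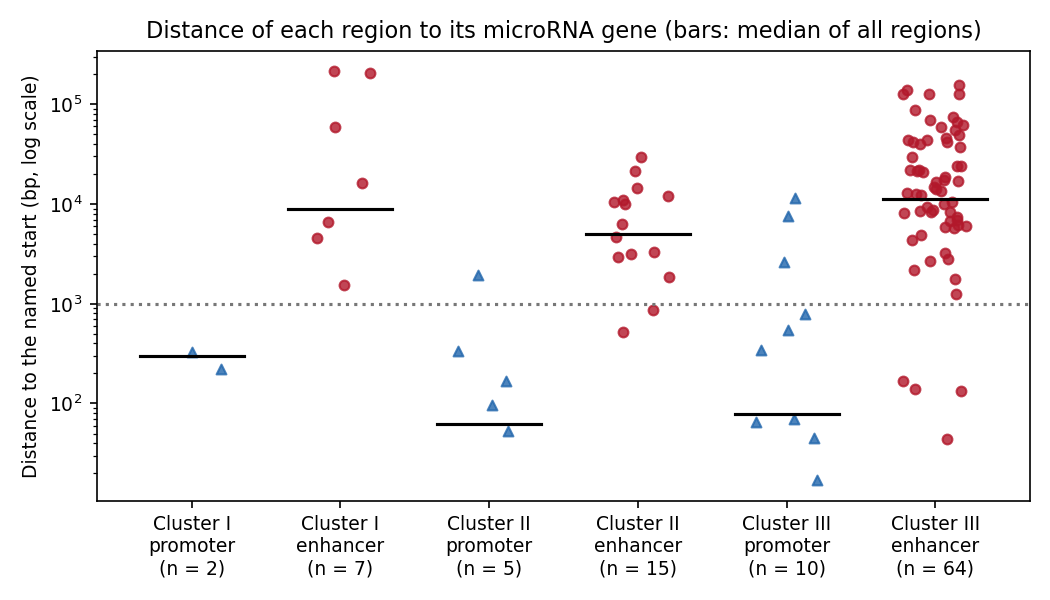
Distance (bp, log axis) of each of the 103 regions to the start of the microRNA gene it names, by cluster and list. Black bars are the medians of all regions of that cluster and list, and the dotted line is at 1 kb, below which 19 of the 103 regions lie.

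By GENCODE 44, 40 of the 77 genes lie in a protein-coding gene on the same strand, and these held 52 of the regions. Another 10 genes lie only opposite to a coding gene (13 regions), 15 only in a long non-coding gene (20 regions), and 12 in none or in a pseudogene (18 regions). Hosts include known regulators: FOXP1 and FOXP2, transcription factors of neural development, hold MIR1284 and MIR3666, and DNMT3A, a DNA methyltransferase, holds MIR1301. NR2F2, a nuclear receptor that retinoic acid is known to induce, holds MIR1469. Of the 40 same-strand hosts, 22 were themselves named at other H3R2me2a regions. The share of all coding genes named at a region was not computed, so this count is not read as high or low. The most often named were TENM4, the host of MIR708, at 12 regions, and RNF220, a ubiquitin ligase gene that hosts MIR5584, at 9. Others, such as DNMT3A, FOXP2, PTPRN2 and CALCR, were named at none. Host status is that of the hairpin, not of the region: regions of hosted microRNAs such as MIR606, MIR5008 and MIR4786 were classed intergenic. Where a region does lie in the host, a mark near the microRNA can equally be a mark in the host, and these cannot be told apart. A coding gene starts within 1250 bp of the hairpin for 7 genes: MIR1469 (NR2F2), MIR3124 (SH3BP5L), MIR3175 (CHD2), MIR3197 (BACE2), MIR4492 (BCL9L), MIR4738 (H3-3B and UNK) and MIR99B (SPACA6).

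Region strength was deposited as whole-number tags. Every region had a value named tagcount, of which no header names the library, and regions of clusters I and III also had MACS tags from the peak caller. At the 9 cluster I regions of microRNA genes tagcount was 0 to 7 above the MACS tags, with a median of 3. Values are raw tags, not scaled between the columns. The median tagcount was 27 at microRNA regions and 32 at all regions, and the median widths were 517 and 513 bp.

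The 9 cluster I regions had tagcounts of 35 to 93. MIR326, a microRNA known from brain that lies in an intron of ARRB1, the gene of the signalling adaptor beta-arrestin, had 92 tags in both columns at chr11:75041340-75042251, 4565 bp downstream of its start. Both regions of MIR3193 were in the promoter list, at chr20:30194303-30194780 (tagcount 49, MACS tags 43) and chr20:30194873-30195694 (93 and 90), 325 bp upstream and 224 bp downstream. All coordinates are in hg19. These were the only cluster I regions of the set within 1 kb of a microRNA start or in the promoter list. MIR7-2, one of several genes for miR-7, a microRNA abundant in neurons and endocrine cells, had a tagcount of 38 and 36 MACS tags 1547 bp downstream.

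The remaining 5 cluster I regions were more distant. MIR4306, in the CLYBL gene, had tagcount 64 and MACS tags 61 at 16396 bp. MIR4262 had 51 and 44 at 6601 bp. MIR595, in PTPRN2, which encodes a protein of secretory vesicles, had 51 and 48 at 215051 bp. MIR4268, with 41 and 37, and MIR3672, with 35 and 31, lay 59031 bp upstream and 207928 bp downstream in intergenic sequence. At such distances the microRNA is only the nearest annotated start. Of the 8 genes with a cluster I region, 3 also had a region in another cluster: MIR326, MIR4306 and MIR595.

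Cluster II held 20 microRNA regions of 17 genes, with tagcounts from 35 to 497 and a median of 71.5, near the 69 of all cluster II regions. The highest belonged to MIR4738, at chr17:73780331-73781235, 53 bp upstream of its start and in the promoter list. MIR4738 lies in H3-3B, a gene for the replacement histone H3.3, and the starts of H3-3B and UNK are within 1250 bp. Its 497 tags were followed by 183 at MIR4425, 145 at MIR3649, 129 at MIR935 in the calcium channel subunit gene CACNG8, and 109 at the second region of MIR326. MIR4472-2 had regions of 104 and 85 tags, MIR1302-1 one of 85, and MIR3616, in the developmental transcription cofactor gene EYA2, one of 75. MIR135B, a microRNA of the miR-135 family in an intron of LEMD1, had 73 tags 3127 bp downstream and 68 tags 335 bp upstream of its start. The promoter list held only 5 of the 20 (25%, 8.66 to 49.1%), against 71.6% of all cluster II regions. Beside MIR4738, MIR3649 and MIR135B these were at MIR3124, with 65 tags at 170 bp, and MIR3175, in the chromatin remodeller gene CHD2, with 54 tags at 97 bp, both upstream.

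Cluster III held 74 microRNA regions of 58 genes. The median was 47 MACS tags and a tagcount of 20, against 50 and 24 over all 6519 cluster III regions. The most MACS tags were at MIR4291, 252 at chr9:96581076-96581871, 167 bp upstream of the hairpin start, where tagcount was 10. MIR3182, in an intron of the cadherin gene CDH13, had 185 against a tagcount of 21 at chr16:83583625-83584356. MIR5584 had 169 against 76, in an intron of RNF220. These 3 regions stood above the other microRNA regions of cluster III, and 47 of the 6519 regions had more MACS tags than that of MIR4291.

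Next came MIR3191, in the promoter list with 134 MACS tags against a tagcount of 41, MIR552 with 124 against 11, and MIR4519, 45 bp upstream of its start in BCL7C, with 113 against 58. MIR3191 lies in BBC3, the gene of the pro-apoptotic protein PUMA, which was itself named at a region within 10 kb. Its transcript identifier in the file belongs to the adjacent MIR3190 in GENCODE 44, so the name of this hairpin is uncertain. Both regions of MIR653, in the calcitonin receptor gene CALCR, were of like strength, at 113 against 37 and 108 against 33. MIR3659 had 107 against 22 and MIR4475 had 100 against 25. MIR92B, whose miR-92b-3p has the seed of the miR-25 and miR-92 family, had 97 against 59 at a promoter-list region 65 bp upstream, and 37 against 20 at another 548 bp downstream. Its neighbourhood also held regions named MUC1 and THBS3.

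To compare the 2 tag columns of a region, the ratio (MACS tags + 1)/(tagcount + 1) was taken, unscaled for depth. It is not a measured ATRA response: the library of tagcount is not stated, and a list of regions called in one library favours high values there. Over the 74 microRNA regions the median ratio was 2.43 (1.28 on the log2 scale), against 2.02 (1.02) over all cluster III regions. At 18 of the 74 (24.3%, 15.1 to 35.7%) the ratio was at least 4, against a background of 15.8% of all cluster III regions. In the enhancer list it was 18 of 64 (28.1%, 17.6 to 40.8%) against 26.3%, and in the promoter list 0 of 10 (which allows a share of up to 30.8%) against 0.997%. Within each list the microRNA share was thus near the background, and the higher pooled share went with the larger part of enhancer regions. At a ratio of at least 2 the count was 44 of 74 against 51.6%, with 42 of 64 enhancer regions against 65.2% and 2 of 10 promoter regions against 32.5%. At a ratio of at least 8 it was 5 of 74 against 3.44%, all 5 among the 64 enhancer regions (background 5.88%). The list medians were 2.85 against 2.57 for enhancer regions and 1.66 against 1.74 for promoter regions.

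The highest ratio was 23.0, at the MIR4291 start, and 8 of 6519 cluster III regions exceeded it. Its raw ratio of tags was 25.2, with an exact interval from counting error of 13.5 to 53.2. MIR606 (12.7, from 37 and 2 tags) and MIR603 (11.7, from 34 and 2) rest on a tagcount of 2. Their raw ratios of 18.5 and 17.0 had intervals of 4.77 to 158 and 4.36 to 146. MIR552 followed at 10.4 and MIR3182 at 8.45, and for these both columns exceeded 10 tags. MIR4316, opposite to the septin gene SEPTIN9, had 7.73, MIR1284 had 6.44 and MIR1265 had 6.25. All 8 are in the enhancer list. The 5 lowest ratios were at MIR595 (1.09), MIR920 (1.10), MIR5093 (1.12), MIR4306 (1.14) and MIR4478 (1.17), and their raw intervals all included 1. As the columns are unscaled, 1 does not mark equal signal, and the median ratio over all cluster III regions was 2.02. MIR920 lies opposite to SOX5, a transcription factor gene that was named at 12 regions.

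**Figure D3:**
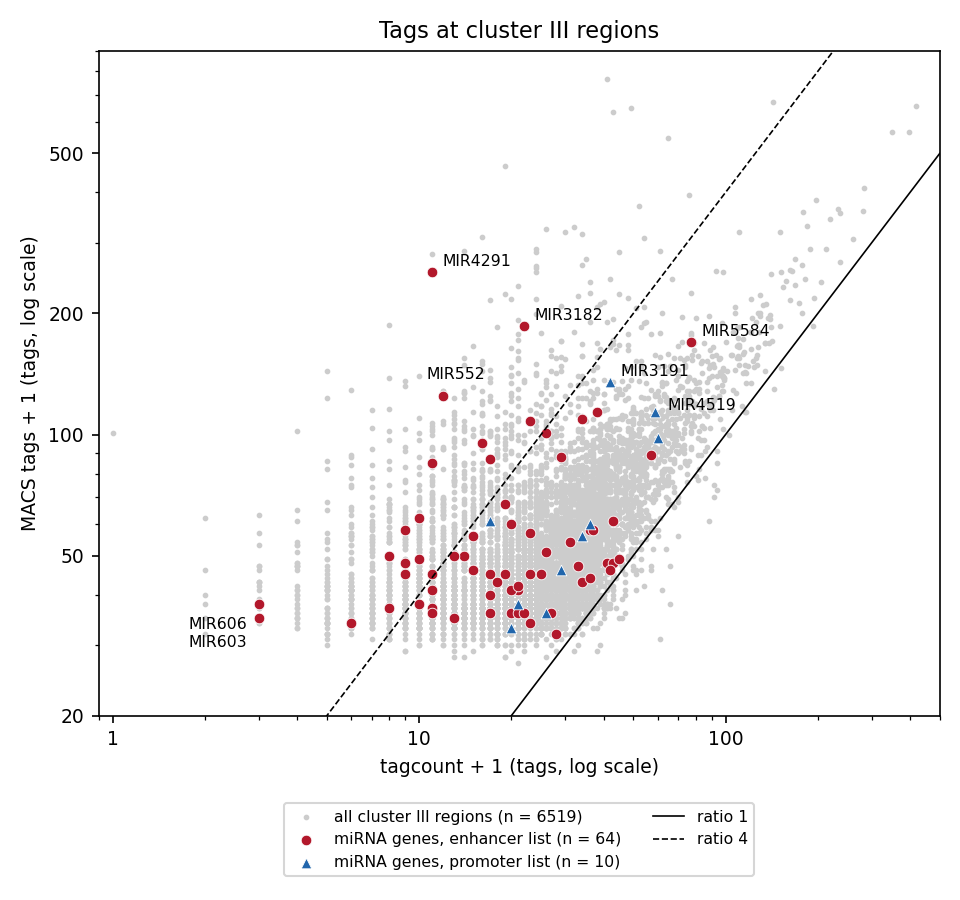
MACS tags + 1 against tagcount + 1 (tags, log axes) at cluster III regions, with microRNA regions of the enhancer list as red circles, those of the promoter list as blue triangles and all 6519 regions in grey. The dashed line marks a ratio of 4, and 18 red circles and no triangle lie on or above it.

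The share with a high ratio was also taken by distance. In the enhancer list, 2 of 4 microRNA regions within 1 kb, 6 of 22 from over 1 to 10 kb and 10 of 38 beyond 10 kb had a ratio of at least 4. Over all enhancer regions of cluster III the shares were 18.9%, 21.7% and 31.0%. The 2 within 1 kb were MIR4291 and MIR3666, which lies in FOXP2 and had 44 MACS tags against a tagcount of 8. With 4 regions in that class, no order with distance can be read from the microRNA regions.

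Of the 77 genes, 63 had 1 region and 14 had 2 or more, together 40 regions. MIR4472-2 on chromosome 12 had 6, of which 2 were in cluster II, with tagcounts 104 and 85, and 4 in cluster III, with tagcounts 13 to 35. MIR5584 had 4, all in cluster III and in RNF220, with ratios of 1.42, 2.0, 2.48 and 2.21 from the farthest to the nearest. MIR595 had 4 in PTPRN2, from all 3 clusters. The 4 genes with 3 regions were MIR1302-1 (2 of cluster II and 1 of cluster III), MIR4291, MIR552 and MIR606 (all cluster III). The 7 genes with 2 were MIR135B, MIR3193, MIR326, MIR4306, MIR4316, MIR653 and MIR92B. Another region lay within 10 kb of 33 of the 103 (32.0%, against 29.4% of all), and for 25 of these each such neighbour named the same microRNA.

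Of the genes with several cluster III regions, some had like ratios and some did not. Ratios were 3.00 and 3.21 at MIR653, 1.63 and 1.81 at MIR92B, and 1.09 and 1.33 at MIR595. At MIR4472-2 they ran from 1.22 to 3.57. At MIR4291 they were 23.0 at 167 bp and 3.73 and 3.53 at 4942 and 8684 bp upstream. At MIR606 the most distant region had 12.7, and the nearer pair, which almost touch, had 3.07 and 5.33, but the raw interval of the first, 4.77 to 158, overlaps the 2.75 to 14.4 of the last. At MIR4316 neighbouring regions had 7.73 and 2.37. At MIR552, whose regions are widely spaced, they were 3.85, 10.4 and 1.57. MIR4291, MIR606, MIR4316 and MIR552 are among the 8 highest ratios, so that other regions of these genes are lower follows from that choice.

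**Figure D4:**
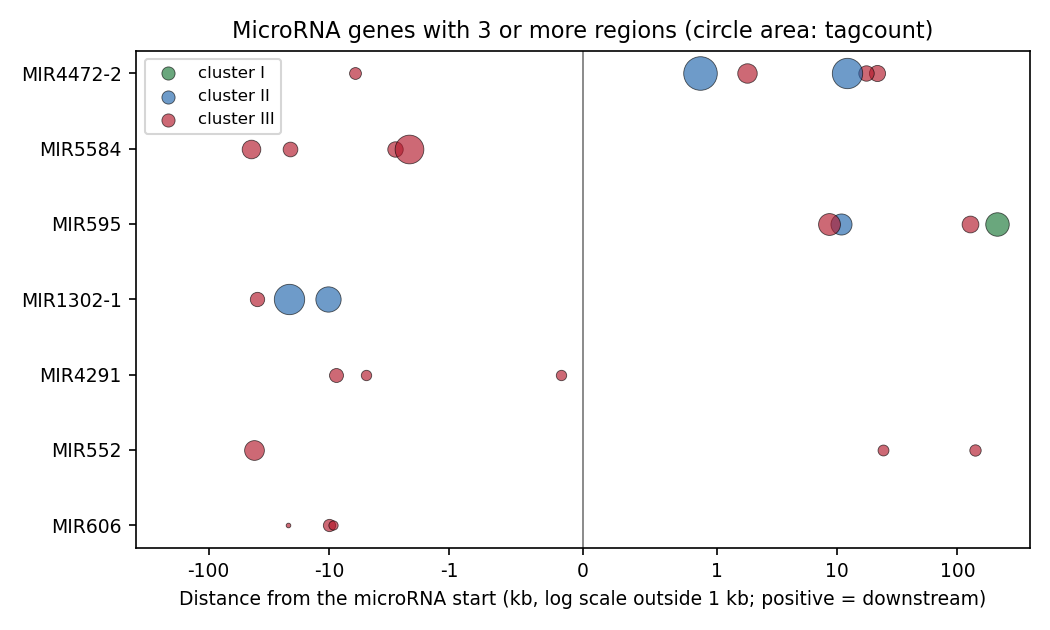
Position of the regions of the 7 microRNA genes with 3 or more regions, as distance from the microRNA start (kb, log axis outside 1 kb, positive downstream), with circle area proportional to tagcount and colour for the cluster. MIR4472-2 and MIR1302-1 carry 2 cluster II regions each, and MIR595 carries regions of all 3 clusters.

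The share of genes of known microRNA families that were named was set beside that of all annotated microRNA genes. Of 122 genes in 7 lists by function, 5 were named (4.10%), at 7 regions. Of the 1850 microRNA genes of GENCODE 44, 77 were named (4.16%). The 2 shares have unlike denominators. Regions were named by the authors on hg19, and how many of the 1850 genes their annotation held is not known. None of the 26 genes of the pluripotency and proliferation list was named. That list holds the miR-302, miR-371 and miR-17 groups. Nor was any of the 6 listed genes of the HOX clusters, 8 epithelial or 16 muscle, blood and liver genes. The lists are not complete: MIR143, of smooth muscle, was placed in another list, and MIR148A, known from liver, in none. The neural list had 3 of 29: MIR135B, MIR326 and MIR7-2, at 5 regions, of which 2 were in cluster I, 3 in cluster II and none in cluster III. At this background a list of such size would hold few named genes, so nothing is read from the counts of single lists. Of 19 let-7 family genes and partners, MIR99B was named, and of 18 p53-linked and growth-control genes, MIR143. The rule left out host genes, and this bears on the counts of 0: MIR17HG, the host of the miR-17 group, was named at 3 cluster III regions, MIR205HG at 4 regions and MIR4435-1HG at 1.

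MIR99B, which is made from the same transcript as let-7e and miR-125a, had a promoter-list region 2621 bp upstream with 55 MACS tags against a tagcount of 33, a ratio of 1.65. MIR143, a microRNA of smooth muscle that lies in the long non-coding gene CARMN with MIR145 nearby, had 36 against 7 at 6195 bp upstream, a ratio of 4.62. MIR148A, known from liver, had 35 against 25 in the promoter list 343 bp upstream, a ratio of 1.38. MIR23A, which shares a transcript with miR-27a and miR-24, had 53 against 30 at 10554 bp upstream, a ratio of 1.74. Of these 4, MIR143 alone had a ratio of at least 4, and its tagcount of 7 gives a raw ratio interval of 2.26 to 13.7. MIR148A and MIR23A were chosen after their values were seen.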

How the data were processed

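Region lists of 2 H3R2me2a ChIP-seq libraries of NT2/D1 control cells were used. The submitters' processing notes name bcl2fastq, Bowtie2, MACS 1.4, deepTools and hg19 (GRCh37), with no role or order. The authors deposited raw counts of tags at each region, together with the name and signed start distance of the nearest transcript, and, per the file headers, a position class with windows of 1250 bp (start) and 5000 bp (upstream). The library of tagcount, the criteria of the lists and clusters, the control and the depth are stated in no label or header. Cluster II has no tag column of its own and gives a pair of intervals per region. Its first interval was used, which matches the promoter and enhancer lists.

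Lists were joined on chromosome, start and stop in Python 3.11.15 with pandas 2.3.3, numpy 2.4.6 and SciPy 1.17.1. Figures used matplotlib 3.10.9. Shares carry exact Clopper-Pearson 95% intervals, and ratios of tags exact binomial ones. The ratio used a pseudocount of 1 and a threshold of 4. All regions served as the comparison, the 103 included, and 3 of them without a distance were left out of distance shares. The code was checked on simulated data. Host genes and neighbours came from GENCODE 44 on GRCh38 by gene name or transcript identifier, and no coordinate was carried between builds.

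The members and gene lists were chosen with earlier results of these data known. Named with values are all cluster I regions, the 10 highest tagcounts of cluster II, the 10 highest MACS tags of cluster III, its 8 highest and 5 lowest ratios, genes with 2 or more regions, genes of the functional lists and the first 8 promoter-list regions by tagcount. Other genes named for their host or their seed were chosen after their values were seen. Alternatives were other distance limits, folds, filters and subsets of regions.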

Additional observations from a re-analysis of the deposited data

How the results depend on the processing

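Of 49 alternative values computed, 40 stayed near the reported value and 9 moved. Near meant inside the interval of the reported share or median, or within 1.5 times the reported count. The count limit took no account of the number of regions: 17 of 54 at 1 region per gene stayed near. Some values could not move. The subset of GENCODE 44 microRNA names kept all 103 regions, and the second interval of cluster II changed membership at 0. These do not speak to stability. With regions under their list's median tagcount left out, the cluster shares became 17.0%, 37.7% and 45.3% for I, II and III, against 4.33%, 44.4% and 51.2% of all regions. That filter kept all 9 cluster I and all 20 cluster II regions and 24 of the 74 in cluster III, whose tagcounts are lower (lowest value 35 in clusters I and II, 0 in cluster III over all regions). Within 10 kb of the named start, the promoter list held 30.2% (all regions 64.3%) and a ratio of at least 4 occurred at 8 of 35 regions (all 9.18%). The latter pools lists of unlike mix. In the enhancer list the counts were 2 of 4 within 1 kb and 6 of 22 from over 1 to 10 kb, against 18.9% and 21.7%. A distance limit of 5 kb in place of 1 kb gave 35% (all 63.8%). A fold of 2 gave 44 regions (all 51.6%) and a fold of 8 gave 5 (all 3.44%). Another region within 50 kb was found for 48.5% (all 58.3%), which is below all regions, where the 10 kb limit put it above. Without chromosome 12 the cluster III share turned from below to above that of all regions (73.9 against 72.8%), inside its interval. The second interval of cluster II and the subset by annotated transcript type were added after seeing the data and changed no share beyond its interval. No paired analysis was possible because each condition had 1 library, and for the same reason no replicate could be left out. Without a known depth, no limit of detection can be given.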
